A study of Mus musculus with 6 samples.

Results

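The regulators of G protein signalling examined here are 9 genes of the Rgs family, Rgs1, Rgs2, Rgs3, Rgs10, Rgs13, Rgs14, Rgs16, Rgs18 and Rgs19, taken as a fixed list of names from the 27179 genes of the deposited count table. They were measured by RNA-seq in 6 libraries of germinal center (GC) B cells sorted from mouse spleen, with both genotypes, WT and Il21r-/-, sampled once at each of 3 times, 7, 10 and 14 days after injection of the hapten-carrier conjugate NP-KLH in alum. All mice were of the C57BL/6 background, and all cells were sorted as class-switched, NP-binding IgG1+ cells lacking CD38 and CD138, so that naive B cells, memory B cells and plasma cells were gated away. By the methods, which give this for all experiments except a labelling time course, the immunized animals were bone-marrow chimeras: irradiated Ly5.1 hosts that had received WT or Il21r-/- marrow. In such chimeras T cells and other blood cells of donor origin lack the receptor along with the B cells, whereas the host's non-haematopoietic cells keep it. The labels do not mention the transfer. The sources differ on the animals behind a library. The series description gives 1 independent mouse each, while the day 7 sort is described for 3 mice of each genotype. The methods name 9 to 10 mice per genotype, from more than 1 immunization. Which immunization a library came from is not given in the labels. With 1 library per genotype and day, the spread between libraries comes from the 6 libraries around a common model, and it may be technical in part.

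RGS proteins bind the GTP-loaded alpha subunit of heterotrimeric G proteins and speed up GTP hydrolysis, which shortens the signal that follows activation of a G protein-coupled receptor. In B cells these receptors include the chemokine receptors and the sphingosine and oxysterol receptors that place cells in the follicle and within the light and dark zones of the GC. The members belong to different subfamilies. Rgs1, Rgs2, Rgs3, Rgs13, Rgs16 and Rgs18 are R4 proteins, most of which consist of little more than the RGS domain. Rgs10 and Rgs14 are R12 proteins, and Rgs19 is an RZ protein.

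Reads counted on genes numbered from 21353438 to 27435124 per library. Il21r, the targeted gene, stood at 346, 263 and 247 CPM (read counts scaled to library size) in WT on days 7, 10 and 14 and at 106, 128 and 113 CPM in Il21r-/-, which is 30.6, 48.5 and 45.7% of the WT level. The genotype labels were thus borne out as a reduction of Il21r reads, not as their absence. GC B cell markers were present in every library, with a summed level of the 11 listed markers between 6770 and 8840 CPM. Of the 9 Rgs genes, 7 passed the limit on low expression (an average log2 CPM of at least 0), along with 11005 genes in all, and Rgs3 and Rgs16 did not.

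Rgs13 was the most abundant Rgs transcript of these cells, and its share grew with time after immunization. On a scale corrected for gene length (RPKM, the CPM per kilobase of gene), Rgs13 had a median level of 276 over the 6 libraries and a range from 134 to 598. Rgs19 followed with a median of 97.4 RPKM, Rgs10 with 72.3 and Rgs2 with 63.6. The range of Rgs10, from 42.4 to 142 RPKM, overlapped those of Rgs19 (87.52 to 116) and Rgs2 (47.5 to 87.4). The place of Rgs10 beside them was thus not separated by the spread over libraries. Every Rgs19 library was above every Rgs2 library, though the ranges nearly met. Rgs14 had a median of 17.6 RPKM, below every library of Rgs2. Rgs18 and Rgs1 came next with medians of 4.06 and 2.21 RPKM and overlapping ranges, from 0 to 15.9 for Rgs18 and from 1.56 to 5.64 for Rgs1. The ranges of Rgs18 and Rgs14 overlapped as well, because Rgs18 reached its highest level in Il21r-/- cells on day 7. Rgs3 and Rgs16 were near the limit of detection, at median levels of 0.084 and 0.0477 RPKM.

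Summed over the 9 genes, WT libraries held 432, 554 and 891 RPKM in order of day, and Il21r-/- libraries 436, 473 and 831 RPKM. Of this sum Rgs13 made up 37.8, 57.3 and 67.1% in WT and 30.7, 49.7 and 68.3% in Il21r-/-. Both genotypes thus moved from a mixed set of Rgs transcripts on day 7 to one in which Rgs13 held the larger part by day 14.

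**Figure D1:**
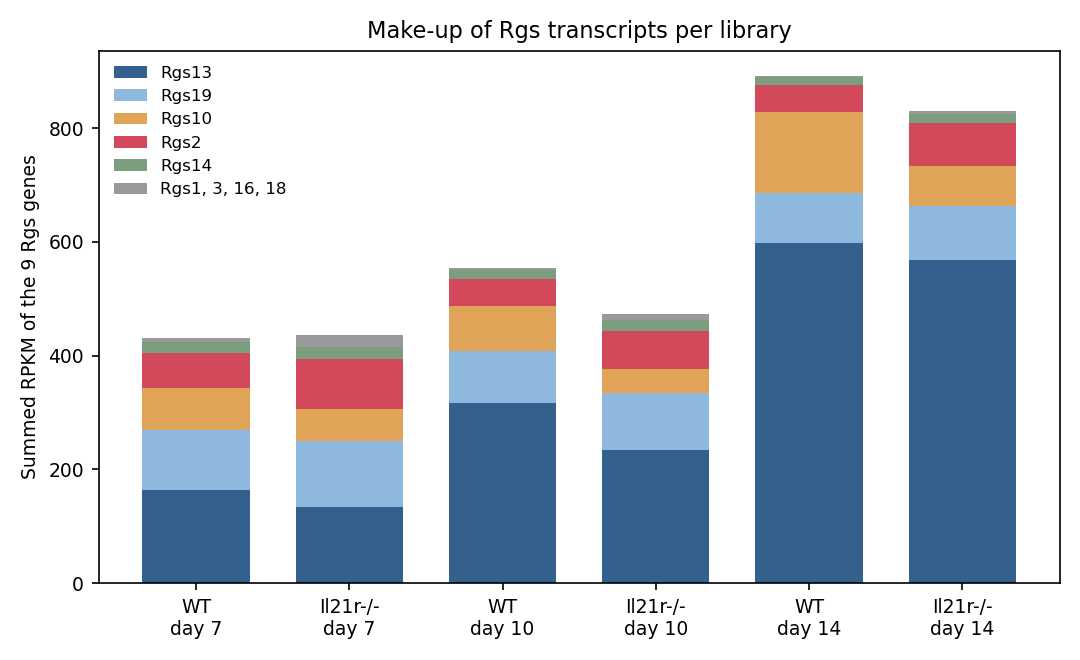
Stacked bars give the RPKM of each Rgs gene in each library (vertical axis, linear, from 0), with WT and Il21r-/- side by side for days 7, 10 and 14. The Rgs13 part grew from 37.8% of the bar in WT and 30.7% in Il21r-/- on day 7 to 67.1 and 68.3% on day 14, while Rgs1, Rgs3, Rgs16 and Rgs18 together remained a thin layer.

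The R4 genes Rgs2, Rgs13, Rgs1 and Rgs18 lie next to each other on chromosome 1 (GRCm38.p6, the build that corresponds to the mm10 of the study), within 776 kb. In order of position they are Rgs2 (1:143999338-144004149), Rgs13 (1:144137386-144177372), Rgs1 (1:144244669-144249104) and Rgs18 (1:144752683-144775427). Rgs21, a further family member between Rgs1 and Rgs18, had 0 counts in all 6 libraries. The gaps were 133 kb between Rgs2 and Rgs13, 67.3 kb between Rgs13 and Rgs1, 271 kb from Rgs1 to Rgs21 and 185 kb from Rgs21 to Rgs18. Rgs16 lies farther along the same chromosome (1:153740353-153745468). The remaining members are Rgs3 on chromosome 4 (4:62559835-62703019), Rgs10 on chromosome 7 (7:128373621-128419506), Rgs14 on chromosome 13 (13:55369732-55384687) and Rgs19 on chromosome 2 (2:181688419-181694537).

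The 250 bases upstream of the RefSeq start are shown for Rgs13 and Rgs2, because these were abundant members with different patterns, the one rising with day and the other higher in Il21r-/-. Sequences are from RefSeq (GRCm38.p6), 5′ to 3′ on the minus strand on which both genes lie. Capitals mark matches on either strand to a loose form of the NF-kB site, GGG and CC with any 5 bases between them, and overlapping matches run together.
Rgs13 (chr1:144177373-144177622): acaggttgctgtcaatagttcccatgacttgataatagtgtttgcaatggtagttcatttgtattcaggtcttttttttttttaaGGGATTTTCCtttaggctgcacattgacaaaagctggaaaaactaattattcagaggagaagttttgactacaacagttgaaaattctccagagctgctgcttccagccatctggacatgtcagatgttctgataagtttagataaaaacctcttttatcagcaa
Rgs2 (chr1:144004150-144004399): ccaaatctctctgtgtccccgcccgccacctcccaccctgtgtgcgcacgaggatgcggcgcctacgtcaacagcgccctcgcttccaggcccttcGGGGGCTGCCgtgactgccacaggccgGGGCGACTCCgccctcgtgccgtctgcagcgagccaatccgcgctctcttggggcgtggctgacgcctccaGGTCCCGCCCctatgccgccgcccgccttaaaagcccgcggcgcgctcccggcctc

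The 2 windows differed in base composition. The Rgs13 window was AT-rich, with 36% GC and 0 CpG dinucleotides. The Rgs2 window had 72.4% GC and 30 CpG, against medians of 52.4% GC and 6 CpG over the 32817 windows of that length in the table. The Rgs13 window held 1 match to this form, namely GGGATTTTCC with its first base 165 bases before the start, and the Rgs2 window held 3. Such a match was common, in 45.8% of all windows. No window of the 6 members in the table held TTCNNNGAA (a STAT site, in 7.01% of all windows), TGANTCA (an AP-1 site, 6.75%) or TGACGTCA (a cAMP response element, 1.55%). A match to letters is not evidence of binding, and its lack in a window of 250 bases says nothing of the factor.

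Over the 3 days, 3 of the 7 tested Rgs genes differed between genotypes, and all 3, Rgs1, Rgs2 and Rgs18, were higher in Il21r-/- cells. The same test called 5.92% of all tested genes, with 4.52% above WT in Il21r-/- and 1.4% below it. It was edgeR's quasi-likelihood test of the genotype term beside a linear day term, with Benjamini-Hochberg adjustment over all tested genes. Differences are given as log2 of WT over Il21r-/-, so that a negative value is a higher level in Il21r-/-. The median over all tested genes was -0.00975. On each of the 3 days 5 of the 7 tested members were higher in Il21r-/-, as were 27.9% of all tested genes, and the other 2, Rgs10 and Rgs13, were higher in WT, as were 25.4%. In bulk RNA a change in the share of cells that express a gene and a change in RNA per cell cannot be told apart.

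Rgs1, which in B cells dampens migration towards chemokines, was a low-level transcript here (Entrez identifier 50778). It stood at 2.31, 2.07 and 2.11 CPM in WT on days 7, 10 and 14, from 63, 51 and 45 reads. In Il21r-/- it stood at 7.51, 3.58 and 4.90 CPM, from 172, 94 and 122 reads. All Il21r-/- libraries were above all WT libraries, and WT varied little (2.16 ± 0.127 CPM, SD, n = 3) beside Il21r-/- (5.33 ± 2 CPM, SD, n = 3). The ranges of the genotypes did not overlap for 18.4% of all tested genes, 10% with Il21r-/- above WT and 8.33% with WT above. The log2 fold change was -1.28 (SE 0.264, adjusted p = 0.0262 by edgeR's quasi-likelihood test), a level 2.44-fold higher in Il21r-/-. With a library left out the value ran from -1.51 to -0.91, and the call was kept only without the day 10 Il21r-/- library, the adjusted p being 0.0644 without WT day 10, 0.113 without WT day 7, 0.112 without Il21r-/- day 7, 0.122 without WT day 14 and 0.137 without Il21r-/- day 14.

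Rgs2, which acts on the Gq and Gi classes of alpha subunit, was among the abundant members (Entrez 19735). Its level in WT was 183, 145 and 143 CPM on days 7, 10 and 14, and in Il21r-/- 263, 199.7 and 227 CPM. Every Il21r-/- library was above every WT library, by 1.44-fold on day 7, 1.38-fold on day 10 and 1.58-fold on day 14. The log2 fold change over the 3 days was -0.56 (SE 0.119, adjusted p = 0.0308 by the same test). With a library left out the value ran from -0.65 to -0.44, and the call was again kept only without the day 10 Il21r-/- library, the adjusted p being 0.0766 without WT day 7, 0.152 without Il21r-/- day 7, 0.121 without WT day 10, 0.212 without WT day 14 and 0.235 without Il21r-/- day 14. Both Rgs2 and Rgs1 kept their calls where day was fitted as a factor (a block), at adjusted p = 3.76e-06 and 4.14e-05 in edgeR.

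Rgs18, best known from megakaryocytes and platelets, both fell with time and was higher in Il21r-/- (Entrez 64214). Its reads numbered 299, 82 and 0 in WT on days 7, 10 and 14, and 675, 353 and 103 in Il21r-/-. This corresponded to 10.96, 3.33 and 0 CPM in WT and to 29.5, 13.5 and 4.14 CPM in Il21r-/-. On every day the Il21r-/- library was above the WT library, although the ranges over the days overlapped because both genotypes declined. A count of 0 in the WT day 14 library allows up to 0.14 CPM (3 counts, counting error only). The measured Il21r-/- level of that day was 29.4-fold above this limit, with the counting error of its 103 reads left aside. The difference was 2.69-fold on day 7 and 4.03-fold on day 10.

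Over the 3 days the log2 fold change of Rgs18 was -2.12 (SE 0.447, adjusted p = 0.0292 in edgeR). The call was lost with the day block, which pairs WT and Il21r-/- within a day (-1.99, adjusted p = 0.229 in edgeR), with no limit on low expression (-2.11, 0.262) and by the Wald test of DESeq2 (-2.94, 0.204). Without the WT day 14 library, the one with no read of the gene, the value was -1.71 with an adjusted p of 0.0163 in the same edgeR test. The call was lost without WT day 7 (adjusted p = 0.0656), Il21r-/- day 7 (0.0513), WT day 10 (0.116), Il21r-/- day 10 (0.232) and Il21r-/- day 14 (0.0581) in edgeR. Leaving out the day 7 libraries of both genotypes, a choice made after the data were seen, also lost it.

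Markers of other cells were read beside Rgs18. Of the 7 listed megakaryocyte and platelet markers, only Itgb3, an integrin chain also made by other blood cells, passed the limit on low expression, and it was higher in WT, with a log2 fold change of 0.60. The platelet genes Pf4 and Ppbp had at most 1 read in a library, Gp9 at most 2, Itga2b at most 6, Gp1ba at most 11, and Gp1bb 0 reads in every library. Because other blood cells make Itgb3 too, its direction does not measure platelet RNA. The summed level of 7 markers of B cells outside the GC was 729.9, 381 and 304 CPM in WT and 1152, 1080 and 717 CPM in Il21r-/- on days 7, 10 and 14. Most of this sum came from Fcer2a and Cr2. Of the 7 markers, 4 were called higher in Il21r-/- over the 3 days, and 3 were called falling with day. Over the 3 days the log2 fold changes ran from -1.81 to -0.13, although Cr2 (0.36), Ighd (0.35) and Cd38 (0.32) were higher in WT on day 7, unlike Rgs18. Their part in the result was not tested.

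Some markers of the light zone, where GC B cells meet antigen and T cells, were also higher in Il21r-/-. The summed level of the 11 listed genes was 1202, 899.9 and 1049 CPM in WT and 1811, 1662 and 1994 CPM in Il21r-/- on days 7, 10 and 14. All 11 had a negative log2 fold change over the 3 days, from -1.16 to -0.05, and 5 were called, each higher in Il21r-/-, among them Cd83 (-0.93) and Cd69 (-0.76). The others, such as Myc (-0.05) and Egr2 (-0.20), did not pass the test. None of the 10 dark zone markers was called by edgeR, 6 of them having an unadjusted p under 0.05. Of the 10, 8 were higher in WT over the 3 days, with a median log2 fold change of 0.195 and a range from -0.407 to 0.378. Their summed level was 2377, 2618 and 2817 CPM in WT and 2206, 2252 and 2583 CPM in Il21r-/- on days 7, 10 and 14. The part of zone composition in the higher Rgs1, Rgs2 and Rgs18 was not tested.

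**Figure D2:**
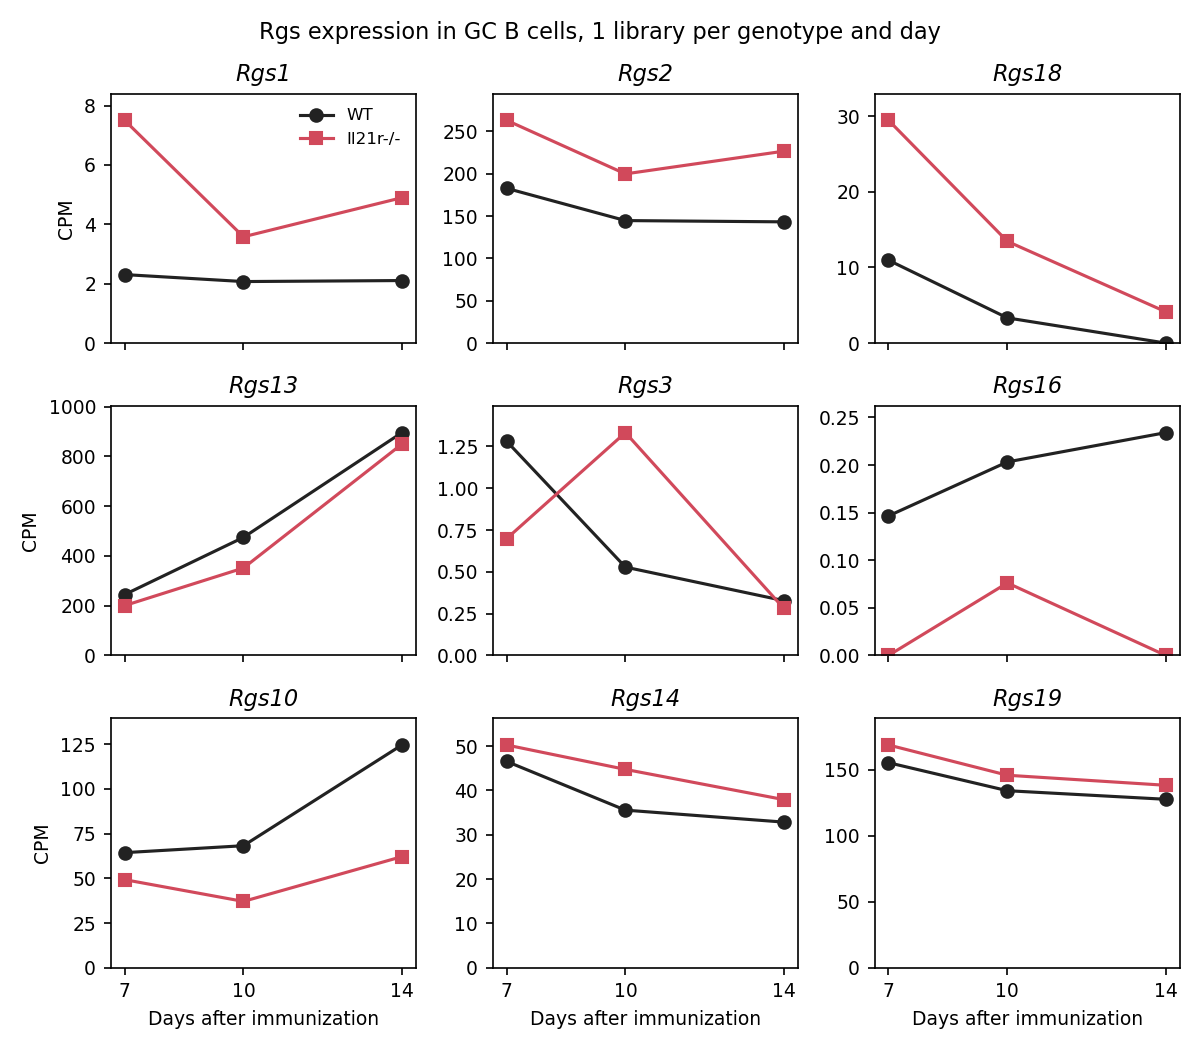
Each panel plots the CPM of 1 Rgs gene (vertical axis, linear, from 0, own scale) against the day after immunization, with WT as black circles and Il21r-/- as red squares, 1 library each. Rgs1 and Rgs2 were higher in Il21r-/- in every library, Rgs10 was higher in WT, and Rgs13 rose from 245 to 896 CPM in WT and from 200.4 to 849.7 CPM in Il21r-/-.

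Rgs10, an R12 protein that acts on Gi-class alpha subunits, had the opposite direction to Rgs1 and Rgs2 (Entrez 67865). It stood at 64.3, 68.2 and 125 CPM in WT on days 7, 10 and 14 and at 49.3, 37.1 and 62.1 CPM in Il21r-/-. Every WT library was above every Il21r-/- library, and the excess in WT was 1.31-fold on day 7, 1.84-fold on day 10 and 2-fold on day 14. The log2 fold change over the 3 days was 0.74 (SE 0.188, adjusted p = 0.0565 in edgeR), just outside the threshold of 0.05. With day as a block it was 0.76 with an adjusted p of 2.26e-05 in edgeR, and the Wald test of DESeq2 gave 0.75 with an adjusted p of 0.00227, so that these fits called it. It was also called without Il21r-/- day 7 (1.04, adjusted p = 0.0187), without WT day 10 (0.85, 0.0468) and without Il21r-/- day 10 (0.59, 0.0472) in edgeR. It was not called without WT day 7 (0.77, adjusted p = 0.172), WT day 14 (0.52, 0.357) or Il21r-/- day 14 (0.73, 0.227) in edgeR.

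Rgs10 lies on chromosome 7 at 2.74 Mb from the end of Il21r, the targeted gene. Of the 77 tested genes between them, 2 were called over the 3 days, or 2.6%, with a median log2 fold change of -0.07. These 2, named after their values were seen, were Apobr (3.76) and Lat (-0.87). Of the 33 tested genes that start within 1 Mb of Rgs10, 0 were called by edgeR. The nearest tested neighbours of Rgs10 were Tial1 at 20.3 kb with a log2 fold change of 0.13 (adjusted p = 0.502 in edgeR) and Rusf1 at 75.5 kb with -0.22 (adjusted p = 0.572). Of these 33 genes 12 had a higher level in WT. On the other side of Il21r, called genes included Gprc5b (-7.54) at -6.63 Mb from its start and Trim12a (4.26) at -21.3 Mb. They were named after their values were seen, and most tested genes on that side were not called. Whether sequence linked to the targeted allele bears on Rgs10 was not tested.

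**Figure D3:**
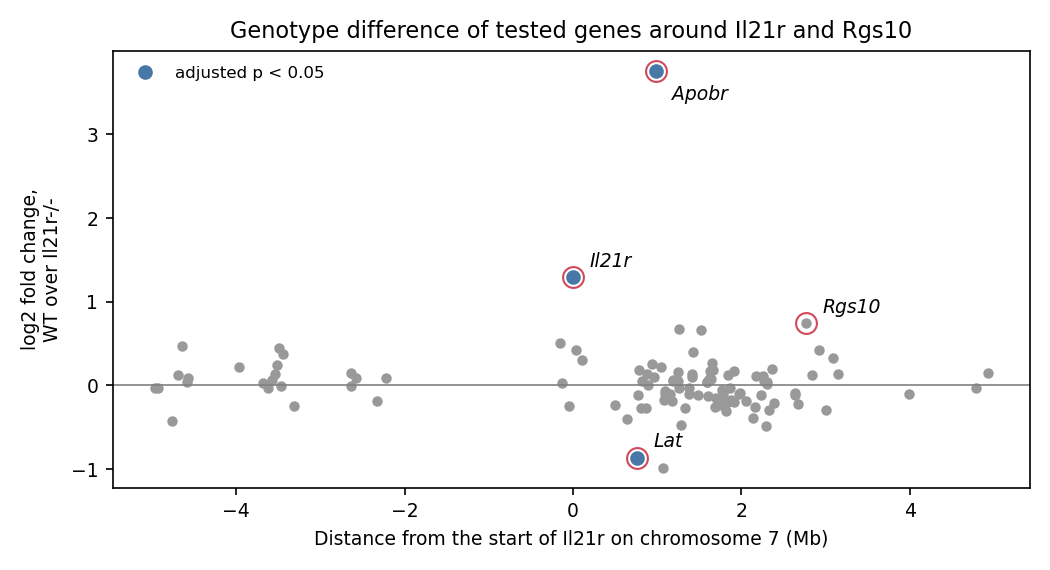
Each point is a tested gene within 5 Mb of Il21r, by the distance of its start from that of Il21r in Mb (horizontal axis) and its log2 fold change over 3 days, WT over Il21r-/- (vertical axis), with blue points at an adjusted p under 0.05. Of these 112 genes, 3 were blue, namely Il21r at 1.29, Apobr at 3.76 and Lat at -0.87, while Rgs10 lay above its neighbours at 0.74.

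Rgs14, an R12 protein with additional domains that bind Gi-class alpha subunits and Ras-family proteins, showed small differences (Entrez 51791). Its level was 46.6, 35.6 and 32.9 CPM in WT on days 7, 10 and 14 and 50.3, 44.8 and 37.9 CPM in Il21r-/-. The Il21r-/- library was the higher one on each day, but the ranges of the genotypes overlapped. The log2 fold change over the 3 days was -0.21 (SE 0.104, adjusted p = 0.283 by edgeR's quasi-likelihood test). Rgs19, an RZ protein also called GAIP, stood at 155, 134 and 128 CPM in WT and at 169, 146 and 138 CPM in Il21r-/- (Entrez 56470). The ranges overlapped here too, and the log2 fold change was -0.12 (SE 0.0909, adjusted p = 0.501 by the same edgeR test).

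Rgs13 differed far more between days than between genotypes. This R4 protein, known from GC B cells and mast cells, limits the responses of chemokine receptors (Entrez 246709). Its level was 245, 475 and 896 CPM in WT on days 7, 10 and 14 and 200.4, 352 and 849.7 CPM in Il21r-/-. WT was the higher library on each day, but the ranges overlapped almost entirely. The genotype difference over the 3 days was 0.27 (SE 0.104, adjusted p = 0.184 in edgeR). With day as a block the difference was 0.26 with an adjusted p of 0.012 in edgeR, so that Rgs13 was called higher in WT in that fit. The 6 listed markers of mast cells and basophils, which also use Rgs13, had 0 reads in all 6 libraries.

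**Figure D4:**
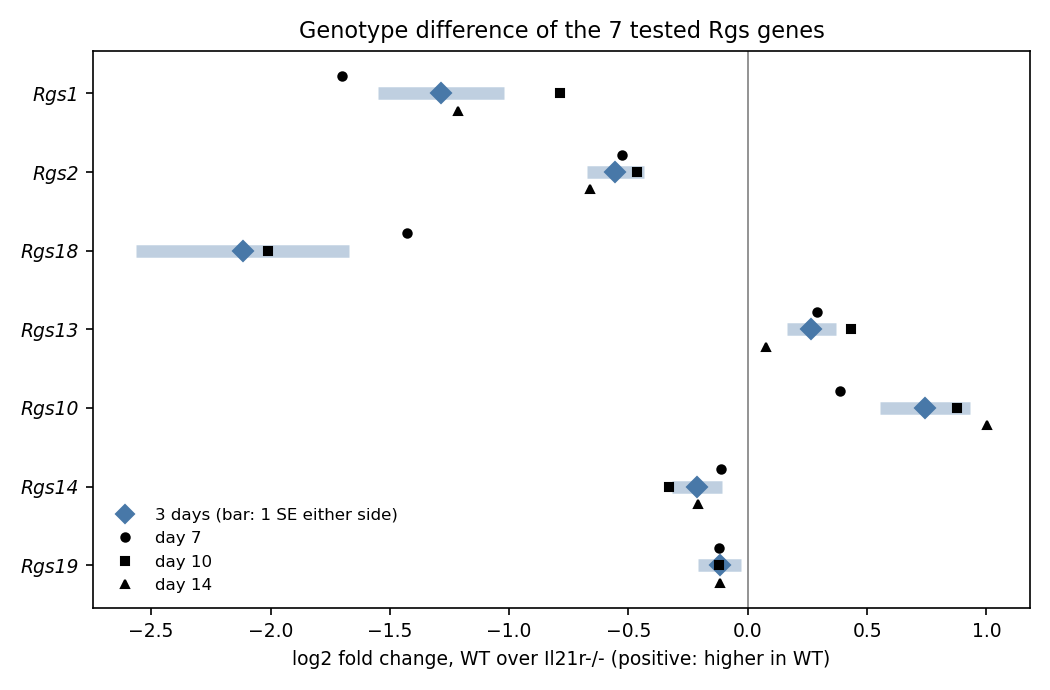
Diamonds give the log2 fold change of WT over Il21r-/- over 3 days (horizontal axis) for the 7 tested Rgs genes, with bars of 1 SE to either side, and black symbols give the differences on single days. Rgs1, Rgs2 and Rgs18 lay at -1.28, -0.56 and -2.12, left of 0, and Rgs10 at 0.74 to its right, and the day 14 point of Rgs18 is left out because WT had 0 reads.

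Tested on single days, with 1 library against 1 and edgeR's likelihood ratio test, few members were called. On day 7 the only one was Rgs1, with a log2 fold change of -1.70 (SE 0.483, adjusted p = 0.0477 in edgeR), while 1.07% of all tested genes were called. The call of Rgs1 on that day was lost where the spread was estimated without WT day 10 (adjusted p = 0.0554 in edgeR), WT day 14 (0.0956) or Il21r-/- day 14 (0.0644), and under 5 of the other settings (0.0502 to 1). On day 10 edgeR called 0 of the 7, although 4 had an unadjusted p under 0.05, against 3.1% of all genes called and 10.8% at such a p, and the Wald test of DESeq2 called 1. On day 14 the only one was Rgs18 (adjusted p = 3.94e-05 in edgeR), against 3.28% of all genes. With dispersions from the fit with day as a block, its adjusted p was 0.117 in edgeR and the call was lost, as it was with the spread estimated without Il21r-/- day 10 (0.134). That fit called Rgs2 on all 3 days (adjusted p = 0.0369, 0.0476 and 0.00117 in edgeR), Rgs10 on days 10 and 14 (0.000296 and 1.34e-05) and Rgs1 on days 7 and 14 (0.000345 and 0.023). A call on 1 day and not on another does not show that the days differ. The difference in day trend between genotypes, tested directly with edgeR's quasi-likelihood test, was called for 0 of the 7 and for 0% of all 11005 genes, of which 118 had an unadjusted p under 0.05. DESeq2 also called 0 genes, with 64 at an unadjusted p under 0.05. Rgs18 had the smallest p of the members, 0.027 before adjustment and 1 after it in edgeR. Its difference in trend was called without WT day 7 and without WT day 10, as a steeper fall in WT.

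With time after immunization Rgs13 rose and Rgs18 fell. The trend was tested as a linear effect of day in edgeR's quasi-likelihood fit, in which 4.43% of all genes were called, 1.07% rising and 3.36% falling. Rgs13 rose by 0.28 log2 units per day (SE 0.0181, adjusted p = 0.00134 in edgeR), or 3.94-fold over 7 days, and stood at rank 15 among the 11005 genes by the size of a rise. From day 7 to day 14 it rose 3.66-fold in WT and 4.24-fold in Il21r-/-. Its level rose from each day to the next in both genotypes, a pattern shared by 5.72% of all tested genes. The call was lost without the WT day 7 library, at a trend of 0.28 and an adjusted p of 0.0592 in edgeR.

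Rgs18 fell by 0.52 log2 units per day (SE 0.083, adjusted p = 0.0152 in edgeR's quasi-likelihood test), a fitted 12.6-fold over 7 days, and stood at rank 3 by the size of a fall. In Il21r-/- it was 7.12-fold lower on day 14 than on day 7. In WT the measured day 7 level was 78-fold above the limit set for day 14, with its own counting error left aside. The trend was -0.43 per day without the WT day 14 library and still called (adjusted p = 0.0253 in edgeR). It was no longer called with no limit on low expression (0.153), by DESeq2 (0.0596), or without WT day 7 (adjusted p = 0.165), Il21r-/- day 7 (0.0536) or Il21r-/- day 10 (0.13) in edgeR. Nor was the trend called without the day 7 libraries of both genotypes.

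The other members gave no called trend in the linear-day fit of all libraries. The CPM of Rgs14 and Rgs19, like that of Rgs18, was lower on each day than on the one before in both genotypes, which held for 11.2% of all tested genes. Rgs14 had a trend of -0.06 per day (adjusted p = 0.0831 in edgeR) and Rgs19 of -0.04 per day (0.176). Under 1 of the other settings the fall of Rgs14 was called (adjusted p = 0.0151 in edgeR). Rgs10 had 0.10 per day (adjusted p = 0.113 in edgeR), which turned to -0.05 without the libraries of day 14, its level being highest on that day in both genotypes. The Rgs10 trend was called as rising by DESeq2 (0.10, adjusted p = 0.0428) and, in edgeR, without Il21r-/- day 10 (0.10, 0.0354) and without the libraries of day 7 (0.21, 0.000827). For Rgs2 the trend was -0.04 per day (adjusted p = 0.302 in edgeR) and for Rgs1 -0.06 per day (0.482), and both changed sign without the libraries of day 7. Under 1 of the other settings the trend of Rgs2 was called as falling (adjusted p = 0.0241 in edgeR).

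**Figure D5:**
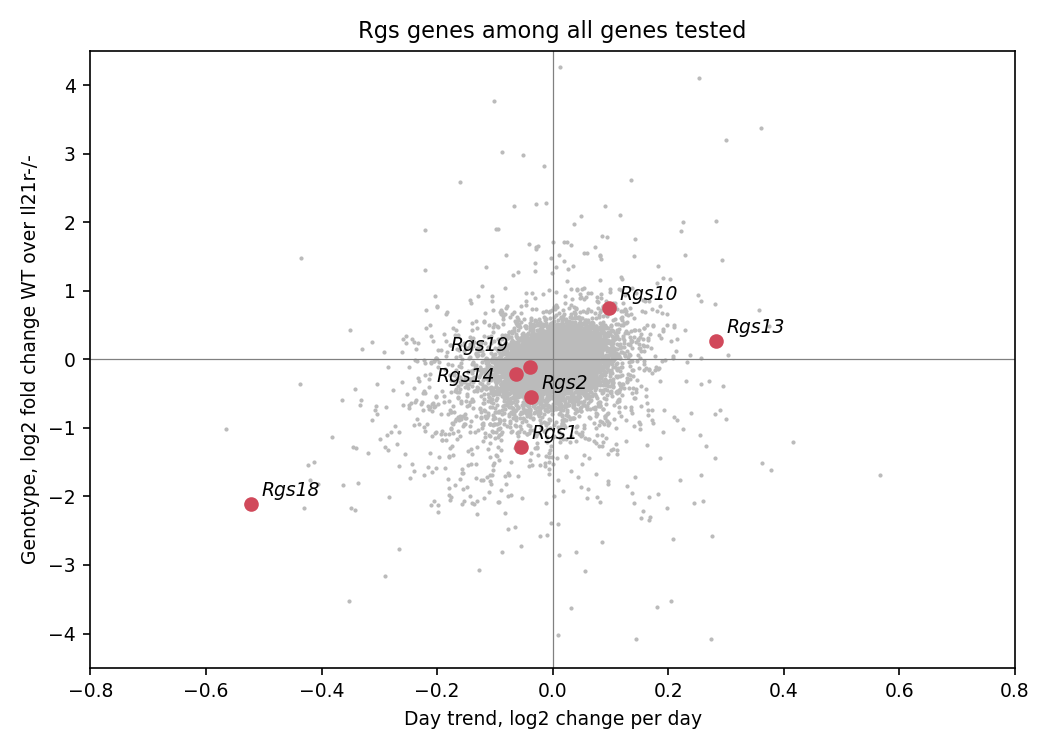
Each grey point is 1 of the 11005 tested genes, by its log2 change per day (horizontal axis) and its log2 fold change over 3 days, WT over Il21r-/- (vertical axis), and red points are the tested Rgs genes; 11 genes lie outside the axes. Rgs13 sits far to the right at 0.28 per day and Rgs18 at the lower left at -0.52 per day and -2.12, while Rgs14 and Rgs19 lie within the central cloud.

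The neighbours on chromosome 1 did not share a single pattern. Rgs2, Rgs1 and Rgs18 were called higher in Il21r-/-, while Rgs13, which lies between Rgs2 and Rgs1, was called for its rise with day. Of the 4 other tested genes within 1 Mb of this stretch, 0 were called by genotype in edgeR, with a median of -0.07. Uchl5, the nearest tested gene beyond Rgs2, had a log2 fold change of 0.14 (adjusted p = 0.411 in edgeR).

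Rgs3 and Rgs16, both R4 proteins, were too low to be tested with the other members. Rgs3 (Entrez 50780) had 35, 13 and 7 reads in WT on days 7, 10 and 14 and 16, 35 and 7 in Il21r-/-, with no fixed order of the genotypes. Rgs16 (Entrez 19734) had 4, 5 and 5 reads in WT and 0, 2 and 0 in Il21r-/-. In a fit of all 16909 genes with any count, the log2 fold change of Rgs16 over 3 days was 2.64 with an adjusted p of 0.195 in edgeR, and that of Rgs3 was -0.21 with 0.857. Neither gene passed the test at this depth, although each WT library had more Rgs16 reads than any Il21r-/- library, 14 against 2 in all. Other Rgs genes were mostly silent: of the 12 listed, 4 had 0 reads in every library and 3 were tested. Rgs4, an R4 protein best known from neurons, had 14, 11 and 40 reads in WT and 27, 44 and 92 in Il21r-/-, was higher in Il21r-/- (-1.26, SE 0.308, adjusted p = 0.0466 in edgeR) and rose by 0.26 per day (adjusted p = 0.0263). Rgs9, known from retina and striatum, stood at 8.65, 18.6 and 28.0 CPM in WT and at 7.72, 15.2 and 21.0 CPM in Il21r-/- and rose by 0.22 per day (adjusted p = 0.0113 in edgeR). Thus Rgs9 shared the rise of Rgs13 at a much lower CPM.

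By the root mean square (RMS) difference of centred log2 CPM over the 6 libraries, the genes most like Rgs13 were Nrep (0.171), Irak1bp1 (0.244) and Rgs9 (0.265). Those most like Rgs1 were Gm5547 (0.176), Nmrk1 (0.198) and S100a10 (0.211). Those most like Rgs10 were Cabp4 (0.177), Mrto4-ps2 (0.184) and Glrx3 (0.191). Those nearest to Rgs18 were Ppfia4 (0.779), Cnrip1 (1.32) and Gm21451 (1.45). The RMS difference grows with a gene's own spread, and the SD of log2 CPM over the libraries was 3.01 for Rgs18, 0.902 for Rgs13, 0.742 for Rgs1 and 0.581 for Rgs10. Among the members themselves, Rgs14 and Rgs19 were the most alike pair (0.0957) and Rgs13 and Rgs18 the least alike (3.43).

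Many of the listed lymphocyte G protein-coupled receptors, which were not chosen by the class of alpha subunit they use, were called by genotype. Of 23 tested lymphocyte G protein-coupled receptors, 12 were called over the 3 days, 11 of them higher in Il21r-/-, with a median log2 fold change of -0.70 and a range from -2.23 to 1.48. The 4 with the smallest adjusted p were S1pr1 (-1.31, SE 0.114), the receptor for sphingosine 1-phosphate that guides cells out of lymphoid tissue, Gpr183 (-2.23, SE 0.206), the receptor for oxysterols, Gpr132 (-2.12, SE 0.21) and Ccr7 (-1.81, SE 0.226), the receptor that draws cells towards the T cell zone. The 1 called receptor that was higher in WT was Cxcr3 (1.48, SE 0.271), named after its values were seen. The number called was 4 without the WT day 14 library and 7 without the Il21r-/- day 14 library. With time 10 of the 23 were called falling and 0 rising in edgeR's test, beside 3.36% and 1.07% of all tested genes. Without the WT day 7 library that trend test called 0 of all tested genes, and without the WT day 14 library it called 5. Ccr7 and S1pr1 also belong to the list of markers of B cells outside the GC given above.

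Of 9 tested G alpha subunits, 0 were called by genotype in edgeR, with 2 at an unadjusted p under 0.05 and 0 called by DESeq2, and the median was 0.06. Of 10 tested beta and gamma subunits the 1 called was Gnb4, a beta subunit, at -0.94 (SE 0.12, adjusted p = 0.0036 in edgeR), from 39.7, 51.8 and 49.5 CPM in WT and 94.5, 84.4 and 91.0 CPM in Il21r-/-. Of 5 tested receptor kinases and arrestins the 1 called was Grk5, a kinase that phosphorylates activated receptors, at -0.89 (SE 0.205, adjusted p = 0.0396 in edgeR). Of 15 tested effectors and modulators 0 were called by edgeR, 3 had an unadjusted p under 0.05 and DESeq2 called 1. With any library other than Il21r-/- day 10 left out, 0 of the other Rgs genes and 0 of the receptor kinases and arrestins were called by edgeR, so that Rgs4 and Grk5 lost their calls. These lists stand beside the 5.92% of all tested genes that were called.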

How the data were processed

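NP-binding IgG1+ GC B cells were profiled by RNA-seq in 6 libraries. The values deposited by the authors are raw read counts of genes, made with featureCounts on the RefSeq annotation of Rsubread after alignment of single-end reads to mm10 and merging of technical replicates. The submitters' processing notes also name CASAVA 1.8.2. Strand and multi-mapping settings are not given in the sources used here, so reads of overlapping genes and paralogs may be shared. The deposited table and the single-library files held identical counts in 6 of 6 libraries, and 0 columns lacked a sample. Symbols and positions came from RefSeq (GRCm38.p6), for 25275 of 27179 identifiers. Those without a symbol held 1.58 to 2.25% of counts and stayed in the library totals. Upstream windows were found for 6 of the 9 members (9 windows).

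As in the study, Xist, genes of the Y chromosome, Ig variable genes and genes with an average log2 CPM under 0 were not tested. CPM used TMM-scaled library sizes, and RPKM divided CPM by the deposited gene length. With edgeR 4.0.16 in R 4.3.3, genotype over 3 days, the linear day trend and their interaction were tested by the quasi-likelihood test and single days by the likelihood ratio test with dispersions from genotype plus linear day, with Benjamini-Hochberg adjustment over 11005 genes (threshold 0.05). The common dispersion was 0.017. SE of the quasi-likelihood tests came from the fitted negative binomial model, scaled by the quasi-likelihood spread. Those of single days came from the negative binomial model alone. Count limits (3 counts for a count of 0) cover counting error only, since reads carry no molecular identifiers. On simulated data the procedure found 85% of genotype differences of 1 log2 unit over 3 days and 51% on day 7. For a trend of that size over 7 days it found 78%, and for a difference in trend 12%. The simulated libraries of a day did not vary together, so these shares may not hold for the data.

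The day pairs the libraries of both genotypes: after subtraction of genotype means, libraries of a day correlated across genes with r = 0.64, 0.413 and 0.645 on days 7, 10 and 14. The alternatives were therefore a day block, DESeq2 1.42.0, other size factors, filters, the linear day term kept for single days, log2 of day, and each library left out.

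Members, lists and tests were chosen with earlier results of these data known. Named were all members, genes of pathway lists called over 3 days (at most the 4 with the smallest adjusted p), Il21r, the nearest tested genes by position and the 3 genes closest in profile to each member whose log2 CPM spans at least 1. Of the remaining marker lists, T cell markers summed to 84.6 to 123 CPM with 0 of 2 tested called. Lck made up most of this sum (80.8 to 121 CPM), with Cd3d, Cd3e, Cd3g, Cd4 and Cd8a each under 1 CPM. Myeloid markers summed to 2.68 to 9.91 CPM with 0 of 3 called. Plasma cell markers summed to 2524 to 3621 CPM, mostly from Jchain (2283 to 3314 CPM), with 2 of 4 called. These 2 were Prdm1, higher in WT (1.64), and Xbp1, higher in Il21r-/- (-0.39). Of the 11 GC B cell markers 1 was called.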

Additional observations from a re-analysis of the deposited data

How the results depend on the processing

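Over the 3 days, 3 members were called by genotype under DESeq2's size factors and by DESeq2, 4 with day as a block, which pairs libraries (2 in each direction, among 2519 genes or 22.9%), 5 without the day 14 libraries (a choice made after the data were seen, as was leaving out day 7), and 0 to 3 with a library left out. Beyond the calls of Rgs18, Rgs10 and Rgs13 already given, the block changed no other 3-day call of a member. For the day trend 2 members were called, but 1 with at least 10 counts in every library or with every gene with any count, and 0 to 3 with a library left out. For a difference in trend 0 to 1 were called with a library left out. The 1 called was Rgs18, without WT day 7 or without WT day 10 (smallest adjusted p = 0.000217 in edgeR). On day 7 the number was 0 under DESeq2 size factors, either filter, the linear day term and DESeq2, 2 with the block, and 0 to 1 leaving out libraries. On day 10 it was 2 with the block, 2 with the linear day term, 1 by DESeq2, and 0 to 1 leaving out libraries. On day 14 it was 0 with at least 10 counts, where Rgs18 is not tested, 3 with the block, 2 with the linear day term, and 1 to 3 leaving out libraries. The calls over all genes ranged from 132 to 2165 for genotype and from 0 to 2177 for trend with a library left out. Of the lists, G alpha subunits had 2 calls with the block, 1 without day 14 and 2 without day 7, and 0 to 2 leaving out libraries; beta and gamma subunits 4, 2 and 2, and 1 to 3. Effectors had 3 with the block, 1 with every gene with any count, 1 by DESeq2, 2 without day 7, and 0 to 3. Receptor kinases and arrestins had 0 without day 14 and 0 to 2, other Rgs genes 0 to 1, and receptors 4 to 12 leaving out libraries. Uncalled trends changed sign without the day 7 libraries for Rgs1 (0.0742 per day) and Rgs2 (0.0269), without the day 14 libraries for Rgs10 (-0.0522), and for Rgs1 with a library left out (-0.0825 to 0.021). The uncalled differences in trend changed sign for Rgs19 under DESeq2 size factors (-0.00134), DESeq2 (-0.00134) and every gene with any count (-0.00164), and their ranges with a library left out spanned 0 for Rgs1 (-0.136 to 0.348), Rgs2 (-0.0985 to 0.0952), Rgs13 (-0.0618 to 0.0197), Rgs10 (-0.0504 to 0.288), Rgs14 (-0.0715 to 0.0376) and Rgs19 (-0.0306 to 0.0421). The cause of these changes was not tested. Depth limits Rgs1, Rgs3, Rgs16 and late Rgs18, which rest on few reads.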
